A study of Mus musculus with 72 samples.

Results

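The genes described here are 8 mouse genes used to follow the formation of neural progenitors: Sox1, Sox3, Sox11, Sox21, Pax6, Zic1, Nes and Fabp7. They were chosen by name, and each was read from the transcript with the highest summed count over the 72 count files, after the 4 technical files of a sample had been added up. They are 8 of the 45321 genes with a named transcript, and all 8 were among the 18273 genes that passed the filter on low counts. The samples are messenger RNA of mouse embryonic stem cells that have or lack Nup133, a scaffold subunit of the nuclear pore, at 3 time points of a differentiation toward neuroectoderm, and the comparison asks how its loss changes that path. Controls were 2 biological replicates of HM1 (Nup133+/+, 40 Chr, XY) and line 1A4 (Nup133+/+, Sox1gfp/+, 40 Chr, XY), derived from a blastocyst. Knockouts were lines 14 (Nup133-/-, 40 Chr, XY) and 19 (Nup133-/-, likely 40 Chr, XY), both CRISPR/Cas9 derivatives of HM1, and the blastocyst-derived line 319 (Nup133merm/merm, Sox1gfp/+, labelled 42 Chr, XX, +8 +12). Genotype and day make 6 groups of 3 samples, and each knockout line is a single line sampled once a day.

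All lines had been grown on inactivated fibroblast feeders in serum and LIF, and most feeders had been removed by a short plating step before the day 0 sample. Day 2 cells had been plated on gelatin at 8500 cells per cm2 in N2B27, a serum-free medium without LIF. Day 3 cells had then received 1 µM all-trans retinoic acid for 24 h, in both genotypes. Bulk RNA of this kind cannot tell fewer cells of a type from less RNA per cell.

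Sox1 and Sox3 belong to the SoxB1 group of transcription factors, which keep neural progenitors undifferentiated, and Sox1 is among the earliest genes restricted to neuroectoderm. Sox21 is a SoxB2 factor that represses genes which SoxB1 factors activate, and Sox11 is a SoxC factor that acts mainly as progenitors become neurons. Pax6 and Zic1 are patterning transcription factors of the neural plate, Pax6 being known for its response to retinoic acid and Zic1 for dorsal neural tissue. Nes encodes nestin, an intermediate filament protein of progenitors, and Fabp7 encodes the brain lipid-binding protein of radial glia.

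Pax6, Sox21 and Zic1 were the genes whose level differed between genotypes at day 3, so the bases before their start sites are shown. The sequences are from RefSeq on GRCm38.p6, which held an entry for 7 of the 8 genes, Sox3 being the other. They are written 5′ to 3′ and end at the base before the start, or before the first annotated untranslated base. Capitals mark CCAAT, the CCAAT box. The Pax6 window is chr2:105668646-105668895 on the plus strand, before the more upstream of its listed starts. The Pax6 transcript that was counted begins further downstream, at 105675513, so this window does not adjoin it. The Sox21 window is chr14:118237031-118237280 on the minus strand, and it also holds exon sequence of the long noncoding RNA Gm4675 on the other strand. The Zic1 window is chr9:91365811-91366018 on the minus strand, 208 bases after 42 untranslated bases had been left out.
Pax6: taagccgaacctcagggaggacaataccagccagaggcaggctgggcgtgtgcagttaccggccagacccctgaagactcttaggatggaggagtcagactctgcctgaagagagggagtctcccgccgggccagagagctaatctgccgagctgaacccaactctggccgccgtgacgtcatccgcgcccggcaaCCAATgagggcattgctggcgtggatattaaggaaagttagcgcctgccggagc
Sox21: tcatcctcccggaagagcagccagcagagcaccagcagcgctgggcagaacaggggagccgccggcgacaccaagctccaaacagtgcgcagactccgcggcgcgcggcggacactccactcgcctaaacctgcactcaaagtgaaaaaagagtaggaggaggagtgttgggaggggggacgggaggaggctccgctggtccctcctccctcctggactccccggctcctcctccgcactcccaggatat
Zic1: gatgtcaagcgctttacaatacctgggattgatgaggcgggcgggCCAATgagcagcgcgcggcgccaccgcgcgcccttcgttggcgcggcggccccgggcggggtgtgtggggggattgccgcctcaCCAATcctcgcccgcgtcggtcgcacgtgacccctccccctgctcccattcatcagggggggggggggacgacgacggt

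5 motifs were searched on both strands in the 250 bases before each start, and in the same window of all 32851 RefSeq promoters. CCAAT occurred 1 time before Pax6, 2 times before Zic1 and not before Sox21, and 33.8% of all promoters held it. ATTGTT, the core that SOX factors bind, was in 9.42% of promoters and in none of these 3 windows. AGGTCA, the half-site of nuclear receptors such as the retinoic acid receptors, was in 14.0% of promoters and in none of the 3, while the window before Fabp7 held 1. The POU octamer ATGCAAAT, in 1.60% of promoters, and TATAAA, in 12.4%, were also in none of the 3. The letters of these motifs do not overlap each other, and a match is a description of the letters only.

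The samples held from 16466730 to 54386782 gene counts. Levels are given in CPM, counts per 1000000 gene counts, scaled with TMM. Nup133 lay between 179.5 and 323.4 CPM in control samples and between 14.3 and 37.1 CPM in knockout samples, so every sample fitted its labelled Nup133 genotype. Line 19 at day 2 was the shallowest sample, and the single gene Gm42418 took 10.1% of its counts, where the top gene took at most 1.48% in any other sample. At day 3 Gm42418 was also higher in lines 14 and 319 (8798 and 13199 CPM) than in the controls (1046 to 1704 CPM), while line 19 at 1294 CPM lay within the control range. Where leaving out line 19 at day 2 changed a call or turned the sign of a test of the 8 genes, that is said beside it. For the genes of the marker lists the effect of leaving out that sample was not examined. The labelled chromosome numbers were compared with the median log2 ratio of expression over the genes of each chromosome, line 319 against line 1A4. Chromosome 12 was higher in line 319 by 0.42, 0.45 and 0.47 at days 0, 2 and 3, and the X chromosome by 0.67, 0.54 and 0.46. Chromosome 8 was lower, by -0.40, -0.56 and -0.51 over 751 genes, which goes against the labelled extra copy, since 3 copies against 2 would give 0.58. The other 17 autosomes lay between -0.22 and 0.06. Line 1A4 itself differed from HM1 on chromosome 8 by 0.07, 0.09 and 0.06.

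**Figure D1:**
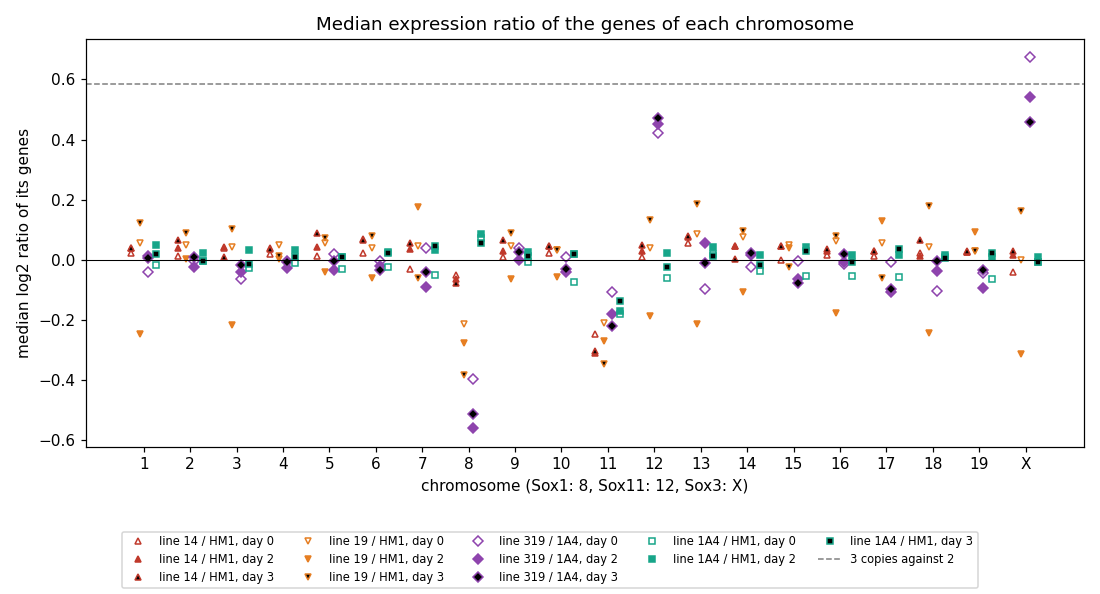
Median log2 ratio of expression over the genes of each chromosome (y axis) for each line against the control of its background, and for line 1A4 against HM1, by chromosome (x axis). Open symbols are day 0, filled symbols day 2 and black-centred symbols day 3. Line 319 lies above 0 on chromosomes 12 and X and below 0 on chromosome 8, and the dashed line is the ratio of 3 copies to 2.

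Levels of different genes were compared per length, as CPM per kilobase of the chosen transcript (RPKM). In the day 0 controls Nes was highest at 15.5 ± 7.5 RPKM (SD, n = 3), followed by Sox21 at 7.32 ± 3.19 and Pax6 at 4.63 ± 1.88, and the ranges of these neighbours overlapped. Sox11 (3.34 ± 0.22) lay above Sox3 (1.22 ± 0.59) without overlap, and Fabp7, Sox1 and Zic1 all had means under 0.26 RPKM. At day 2 Nes (36.5 ± 5.2 RPKM), Sox11 (14.4 ± 1.2) and Sox3 (9.34 ± 1.65) led in that order, each apart from the next. At day 3 the order in the controls was Nes (27.8 ± 6.6), Sox3 (21.5 ± 1.2), Sox11 (15.0 ± 1.4), Sox1 (12.6 ± 6.2), Pax6 (10.7 ± 3.8), Fabp7 (5.64 ± 2.42), Sox21 (2.35 ± 0.94) and Zic1 (0.423 ± 0.080). Of these neighbours, Nes with Sox3, Sox11 with Sox1, Sox1 with Pax6, and Pax6 with Fabp7 had overlapping ranges.

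In the knockout samples the order per length was another one. At day 0 Sox21 (13.4 ± 8.5 RPKM) and Pax6 (8.19 ± 4.93) had means above Nes (5.79 ± 0.97), with overlapping ranges. At day 2 Sox3 (17.7 ± 12.6), Nes (17.7 ± 5.8) and Sox11 (17.1 ± 1.8) lay together. At day 3 Pax6 had the highest mean, 63.7 ± 50.8 RPKM, with a range of 12.9 to 114.5, and Nes followed at 48.4 ± 22.5. Sox21 stood at 9.35 ± 5.56 and Zic1 at 3.30 ± 1.30, and Fabp7 at 2.29 ± 0.53 was the lowest of the 8. Neighbours in the day 3 order overlapped throughout, except Nes and Sox11.

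**Figure D2:**
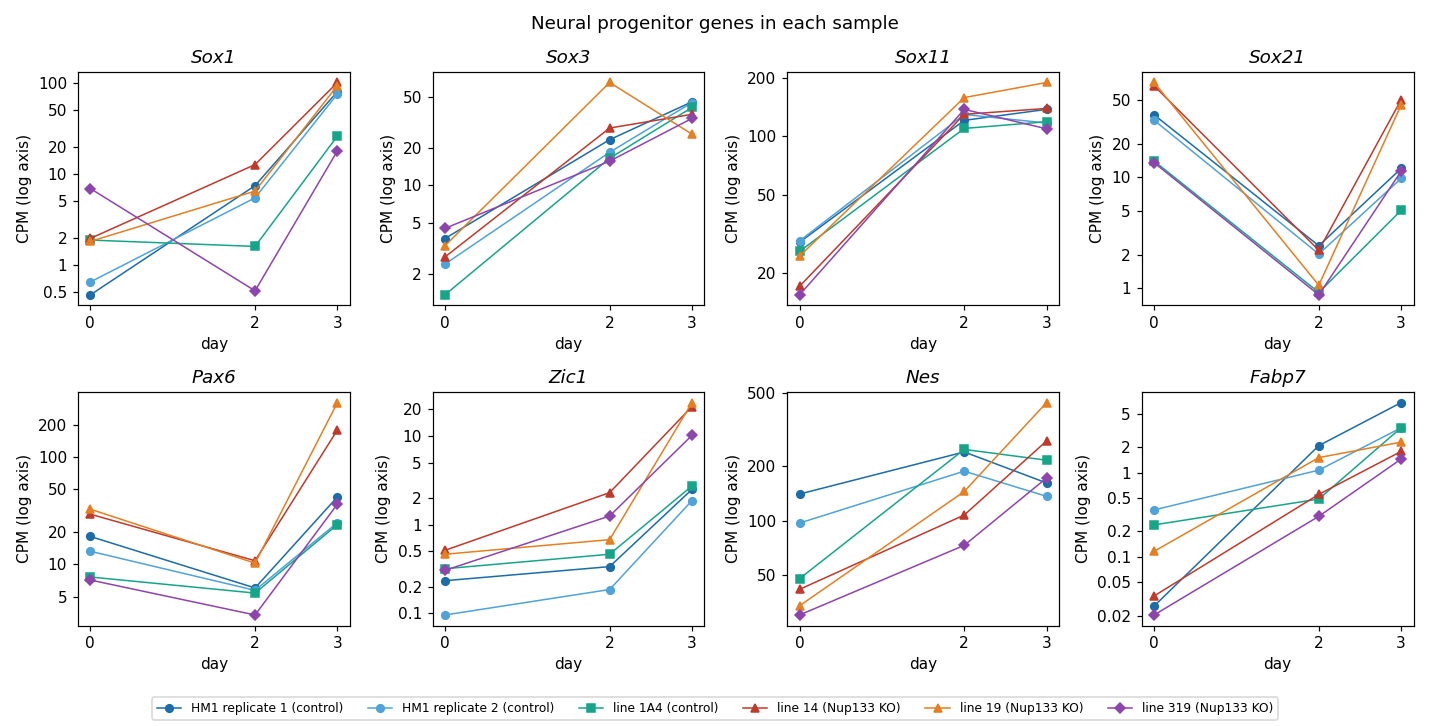
CPM of each gene (y axis, log scale, a separate scale for each gene) at days 0, 2 and 3 (x axis) in the 6 series of samples, with points joined within a line or replicate. Sox21 dips at day 2 in every series, and the triangles of lines 14 and 19 stand highest for Pax6, Sox21 and Zic1 at day 3.

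The course of differentiation in the controls was taken first. From day 0 to day 2, 5 of the 8 genes changed, where 35.2% of all genes tested did (edgeR quasi-likelihood test, Benjamini-Hochberg adjusted p below 0.05 over all 18273 genes, which is the rule for every call here). Sox3 rose by 2.95 ± 0.42 on the log2 scale (SE), Fabp7 by 2.45 ± 0.65, Sox11 by 2.11 ± 0.17 and Nes by 1.32 ± 0.34. Sox21 fell by 3.97 ± 0.30. The rise of Nes missed the threshold without line 1A4 (adjusted p = 0.0512) and that of Fabp7 without HM1 replicate 1 (adjusted p = 0.164). Sox1 (2.08 ± 0.97), Pax6 (-1.02 ± 0.44) and Zic1 (0.69 ± 0.58) were not called, though in HM1 alone Sox1 rose by 3.54 (adjusted p = 9.1e-05). With each line's series as a block, Pax6 was called at this step (-1.11, adjusted p = 0.0065), as it was without line 1A4 (adjusted p = 0.0123) or line 319 (adjusted p = 0.00484).

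From day 2 to day 3, the step that brought retinoic acid, 6 genes rose in the controls, where 12.5% of all genes rose and 21.4% were called in either direction. Sox1 rose by 3.68 ± 0.89, Zic1 by 2.82 ± 0.48, Sox21 by 2.37 ± 0.29, Pax6 by 2.34 ± 0.45, Fabp7 by 2.01 ± 0.54 and Sox3 by 1.21 ± 0.38. Sox11 (0.06 ± 0.17) and Nes (-0.37 ± 0.33) were not called. Without HM1 replicate 2 the count was 3, with Sox1, Sox3 and Fabp7 lost. The rise of Sox3 was also lost without HM1 replicate 1 or line 1A4 (adjusted p = 0.133 and 0.162), and that of Fabp7 without line 1A4 (adjusted p = 0.115). That of Sox1 missed the threshold without HM1 replicate 1 too (adjusted p = 0.0663). Over the whole course from day 0 to day 3 all 8 genes were called in the controls, Sox21 lower by -1.60 and the other 7 higher, where 51.0% of all genes were called. Nes lost this call without line 1A4 (0.32, adjusted p = 0.392) and without line 14 (0.95, adjusted p = 0.0541), and Pax6 without HM1 replicate 1 (1.37, adjusted p = 0.0883).

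The same steps were tested in the knockout samples. From day 0 to day 2, 7 of 8 genes were called, beside 35.9% of all genes. Nes, Sox3, Sox11, Zic1 and Fabp7 rose, and Sox21 (-4.95 ± 0.33) and Pax6 (-1.43 ± 0.44) fell. The fall of Pax6 missed the threshold without line 14 or line 19 (adjusted p = 0.113 and 0.0638), and the rise of Zic1 without line 14 (adjusted p = 0.133). For Sox1 the estimate was 0.38 ± 0.92 and was not called. In lines 14 and 19 alone it rose by 2.39 (adjusted p = 2.7e-04 in the fit of HM1-derived lines), while in line 319 it went from 6.91 to 0.52 CPM.

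From day 2 to day 3 the knockout samples had 5 genes called, all higher, where 17.6% of all genes rose and 33.6% were called. Sox21 rose by 4.48 ± 0.32, Pax6 by 4.32 ± 0.49, Zic1 by 3.61 ± 0.46, Sox1 by 3.44 ± 0.88 and Nes by 1.44 ± 0.34. Sox3 (-0.11 ± 0.38), Sox11 (0.02 ± 0.17) and Fabp7 (1.43 ± 0.59) were not called, and Fabp7 was called without line 19 at day 2 (1.99, adjusted p = 0.0243). From day 0 to day 3, 7 of the 8 genes rose in the knockouts, where 28.4% of all genes rose and 50.6% were called, and Sox21 was not called (-0.47 ± 0.26), though it was lower without line 319 (-0.54, adjusted p = 0.0489). For Sox3 the day 2 to day 3 value turned to 0.52 without line 19 at day 2. Without that sample the rises from day 2 to day 3 were 4.21 for Sox21, 4.33 for Pax6, 3.30 for Zic1, 3.34 for Sox1 and 1.63 for Nes, all called, and the 7 calls from day 0 to day 2 also held. Nes thus passed the test from day 2 to day 3 in the knockouts and not in the controls, and Sox3 in the controls and not in the knockouts. The difference between genotypes in these steps was tested directly, and its values follow the comparisons by day.

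Knockout and control were then compared at each day. At day 0 none of the 8 genes was called, where 0.854% of all genes were. By edgeR 4 of the 8 had an unadjusted p below 0.05, beside 10.6% of all genes, and DESeq2 called 1, Nes. At day 2 Zic1 was called higher, where 0.635% of all genes were higher and 1.6% were called in either direction. At day 3 Sox21, Pax6 and Zic1 were called, all 3 higher in the knockouts, where 2.75% of all genes were higher and 5.19% were called in either direction. The median log2 fold change of the 8 genes was 0.62, 0.25 and 0.46 at days 0, 2 and 3, beside 0.01, 0.02 and 0.02 for all genes tested. Sox21, Pax6 and Zic1 were each also called at day 3 without line 14, without line 19 and without line 319, with adjusted p from 2.8e-04 to 0.0460. None of the 3 was called at day 3 without HM1 replicate 1 or without HM1 replicate 2. Sox21 also lost its call without a term for background. Whether the higher Gm42418 of lines 14 and 319 at day 3 had a part in these values was not tested. Without line 19 at day 2, the day 2 fold change was 0.48 for Sox1, 0.20 for Sox11, -0.02 for Sox21, 0.26 for Pax6, -1.29 for Nes and -1.31 for Fabp7, and none of these was called.

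**Figure D3:**
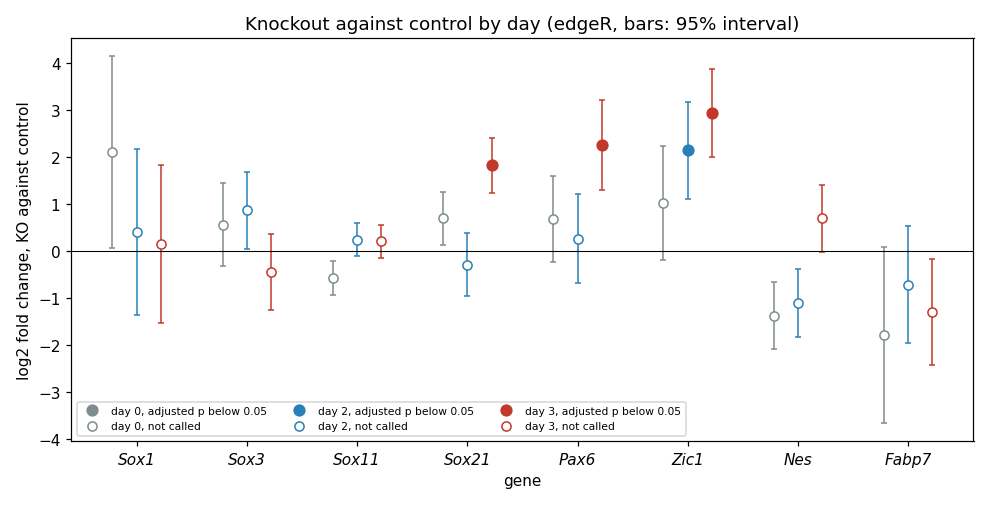
Log2 fold change of knockout against control (y axis) for each gene (x axis) at days 0, 2 and 3, with the 95% interval derived from the edgeR test. Filled points passed an adjusted p of 0.05, and these are Zic1 at day 2 and Sox21, Pax6 and Zic1 at day 3.

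Sox1 is a gene of a single exon of 4832 nt at chromosome 8, 12395295 to 12400126, on the plus strand (GRCm38), and the microRNA gene Gm25239 lies inside it. At day 0 it stood at 0.47, 0.65 and 1.87 CPM in HM1 replicates 1 and 2 and line 1A4, and at 1.95, 1.81 and 6.91 CPM in lines 14, 19 and 319. Each knockout line was above the control of its own background, but lines 1A4 and 19 overlapped across genotypes. The log2 fold change was 2.10 ± 0.96 (SE, adjusted p = 0.446), and within HM1-derived lines it was 1.75 (adjusted p = 0.0398).

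At day 2 Sox1 stood at 7.44, 5.46 and 1.60 CPM in the controls and at 12.7, 6.48 and 0.52 CPM in the knockout lines. The lines of blastocyst origin were the lowest of their group in both genotypes. The fold change was 0.40 ± 0.83 (adjusted p = 0.821), and without line 14 it had the other sign (-0.51). At day 3 the controls held 80.6, 75.8 and 26.1 CPM and the knockout lines 101.4, 93.8 and 17.96 CPM. The groups overlapped, and the fold change was 0.16 ± 0.79 with a 95% interval of -1.52 to 1.84 (adjusted p = 0.938). Without line 1A4, 14 or 19 the estimate was -0.02, -0.10 or -0.01, and no sign held over these fits.

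Lines 1A4 and 319 carry Sox1gfp/+, and the labels do not say how that allele was built or which transcript it gives. In the controls Sox1 was lower in line 1A4 than in HM1 by -1.58 ± 0.36 at day 3 and by -2.01 ± 0.39 at day 2, and higher by 1.74 ± 0.43 at day 0. None of these passed the threshold (adjusted p = 0.401, 0.190 and 0.180). They rest on 1 sample against 2, with line 1A4 assumed to vary like the other groups, and DESeq2 called all 3 (adjusted p = 0.00716, 2.5e-04 and 0.0142 at days 3, 2 and 0). All 3 were also called without the day 2 sample of line 19 (adjusted p = 0.00103, 0.00101 and 0.00875) and without line 14. That allele and the blastocyst origin are shared by the same lines and cannot be told apart here.

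On chromosome 8, line 319 against line 1A4 had median ratios of 0.760, 0.678 and 0.700 at days 0, 2 and 3. The log2 difference of Sox1 between these lines was 1.64, -1.04 and -0.53. Less the chromosome's median it was 2.04, -0.48 and -0.02, so at day 3 Sox1 differed by as much as the middle gene of its chromosome. Chromosome 8 was also lower in line 19 than in HM1, by -0.21, -0.28 and -0.38, and near 0 in line 14 (-0.05, -0.06 and -0.08). Chromosome 11 was also lower than in HM1, by -0.21, -0.27 and -0.35 in line 19 and -0.25, -0.31 and -0.30 in line 14. At day 2 in line 19, chromosomes 1 (-0.25), 18 (-0.24) and X (-0.31) were low too. At day 3 chromosomes 1, 18 and X stood at 0.12, 0.18 and 0.16 in line 19. Chromosome 11 was below HM1 in line 319 as well (-0.27, -0.34 and -0.36) and in control line 1A4 (-0.18, -0.17 and -0.14). With the median of each chromosome set equal in every sample, the day 3 fold change of Sox1 was 0.43 and was not called. A loss in line 319 and a gain in line 1A4 cannot be told apart from a ratio of these lines. Against HM1, chromosome 8 of line 319 stood at -0.35, -0.49 and -0.44. The cause of these values was not tested.

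Sox3, also a single exon, lies on the X chromosome at 60891366 to 60893430, minus strand, and its transcript is 2065 nt long. The day 0 samples stood at 3.80, 2.38 and 1.36 CPM in the controls and at 2.71, 3.32 and 4.57 CPM in the knockout lines, with overlap (0.56 ± 0.41, adjusted p = 0.753), and in HM1-derived lines the difference was -0.01. At day 2 the controls held 23.1, 18.3 and 16.4 CPM and the knockouts 28.6, 65.6 and 15.6 CPM. Line 19 stood alone there, in the sample in which Gm42418 took 10.1% of the counts. The day 2 fold change was 0.87 ± 0.39 (adjusted p = 0.222) with that sample and 0.22 (adjusted p = 0.761) without it.

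At day 3 the direction of Sox3 was the other one. The controls held 46.1, 45.5 and 41.5 CPM and the knockouts 36.7, 25.5 and 34.1 CPM, and every knockout sample lay below every control. The fold change was -0.45 ± 0.38 and was not called (adjusted p = 0.533). On the X chromosome the median gene was higher in line 319 than in line 1A4 by 0.46 at day 3, while Sox3 was lower by -0.28.

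Sox21 lies on chromosome 14 at 118233232 to 118237030, minus strand, in a single exon of 3799 nt, of which Gm4675 shares 713 bases on the opposite strand. At day 0 it stood at 36.7, 32.8 and 14.0 CPM in the controls and at 67.1, 71.9 and 13.5 CPM in lines 14, 19 and 319. The difference lay in the HM1-derived lines, and over the groups it was 0.70 ± 0.26 (adjusted p = 0.309). Without line 319 it was 1.03 (adjusted p = 0.0202). At day 2 every sample held between 0.86 and 2.4 CPM, and the groups overlapped (-0.29 ± 0.31, adjusted p = 0.637).

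At day 3 Sox21 held 12.0, 9.75 and 5.02 CPM in the controls and 50.2, 45.0 and 11.3 CPM in the knockout lines. Line 319 fell among the HM1 samples, so the groups overlapped, but each knockout line was above the control of its background. The fold change was 1.82 ± 0.27 (adjusted p = 0.0030). The call was lost without HM1 replicate 1 (adjusted p = 0.0743), without HM1 replicate 2 (adjusted p = 0.0765) and without a term for background (adjusted p = 0.0900), with fold changes of 1.82, 1.66 and 1.99.

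Sox11 lies on chromosome 12 at 27334264 to 27342574, minus strand, in a single exon of 8311 nt. The day 0 samples stood at 28.6, 29.1 and 25.7 CPM in the controls and at 17.01, 24.3 and 15.4 CPM in the knockout lines, without overlap. The fold change of -0.57 ± 0.17 was not called (adjusted p = 0.154), though it was without line 19 (-0.75, adjusted p = 0.00871). At day 2 the order turned, with 120.8, 129.5 and 109.8 CPM in the controls and 129.7, 158.0 and 137.4 CPM in the knockouts. The groups were apart by only 0.2 CPM, and the fold change was 0.24 ± 0.17 (adjusted p = 0.428).

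At day 3 Sox11 ranged from 117.0 to 137.5 CPM in the controls and from 109.3 to 188.9 CPM in the knockouts (0.21 ± 0.17, adjusted p = 0.505). Chromosome 12 was higher by 0.42, 0.45 and 0.47 in line 319 than in line 1A4, and Sox11 differed between these lines by -0.72, 0.32 and -0.12. With chromosome medians set equal the day 3 fold change was 0.00.

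Pax6, on chromosome 2 at 105675513 to 105697361, plus strand, was read from a transcript of 14 exons and 2814 nt, of 26 annotated. At day 0 it stood at 18.2, 13.2 and 7.62 CPM in the controls and at 29.3, 32.7 and 7.14 CPM in the knockout lines. At day 2 it was lower in all samples, at 6.02, 5.72 and 5.39 CPM in the controls and 10.8, 10.3 and 3.37 CPM in the knockouts. Lines 14 and 19 lay above HM1 at both days and line 319 below line 1A4, and the fold changes of 0.68 ± 0.43 and 0.26 ± 0.45 were not called (adjusted p = 0.670 and 0.776). Without HM1 replicate 2 the day 2 value was -0.06.

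At day 3 Pax6 held 42.6, 24.5 and 23.5 CPM in the controls and 179.1, 322.3 and 36.4 CPM in lines 14, 19 and 319. Lines 14 and 19 were far above every control, and line 319 lay between HM1 replicates 1 and 2. The fold change was 2.25 ± 0.45 with a 95% interval of 1.30 to 3.20 (adjusted p = 0.0118). It missed the threshold without HM1 replicate 1 (2.24, adjusted p = 0.120) and without HM1 replicate 2 (1.87, adjusted p = 0.130).

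Zic1, on chromosome 9 at 91358058 to 91365768, minus strand, has 3 exons and 5606 nt and shares 60 bases with Zic4 on the opposite strand. It was scarce at day 0, with 4 to 9 counts in a control sample and 15 to 20 in a knockout sample (1.02 ± 0.57, adjusted p = 0.585). At day 2 it stood at 0.34, 0.19 and 0.46 CPM in the controls and at 2.30, 0.68 and 1.25 CPM in the knockouts, without overlap. These were 15, 8 and 23 counts in the controls and 121, 9 and 29 in the knockouts. The fold change was 2.15 ± 0.49 (adjusted p = 0.0392), and 2.43 (adjusted p = 0.0157) without line 19 at day 2. The call was lost without either HM1 replicate or line 14 (adjusted p from 0.117 to 0.287) and in a fit of the day 2 samples alone (adjusted p = 0.426), with fold changes from 1.54 to 2.18.

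At day 3 Zic1 held 2.50, 1.87 and 2.73 CPM in the controls and 21.5, 23.8 and 10.2 CPM in the knockout lines. All 3 knockout lines lay above all 3 controls, line 319 included, and the ratio of the group means was 7.80. The fold change was 2.94 ± 0.44 (adjusted p = 0.0030), the largest of the 8 genes at that day in size. Without HM1 replicate 1 or 2 it was 2.97 or 2.70, with adjusted p of 0.0723 and 0.0630.

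Nes, on chromosome 3 at 87971093 to 87980451, plus strand, has 4 exons and 6126 nt. The day 0 samples stood at 139.8, 96.9 and 48.0 CPM in the controls and at 41.9, 34.1 and 30.3 CPM in the knockout lines. At day 2 it stood at 237.9, 186.6 and 245.7 CPM against 107.2, 144.4 and 73.1 CPM. At both days every knockout sample lay below every control. The fold changes of -1.37 ± 0.34 and -1.11 ± 0.34 were not called (adjusted p = 0.0826 and 0.0985), while DESeq2 called both (adjusted p = 0.00718 and 0.0298).

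At day 3 Nes held 160.8, 135.8 and 214.4 CPM in the controls and 273.4, 443.9 and 171.3 CPM in the knockouts. Lines 14 and 19 were now above every control and line 319 was among them, and the fold change was 0.70 ± 0.34 (adjusted p = 0.237). In HM1-derived lines alone it was -1.63 at day 0 and 1.26 at day 3, and both were called (adjusted p = 0.0241 and 0.0310).

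Fabp7, on chromosome 10 at 57784881 to 57788450, plus strand, has 4 exons and 804 nt, and all 18 samples together held 964 counts of it. At day 0 no sample had more than 15 counts, and the fold change was -1.78 ± 0.88 (adjusted p = 0.505). At day 2 it stood at 2.09, 1.07 and 0.48 CPM in the controls and 0.55, 1.51 and 0.30 CPM in the knockouts, with overlap (-0.72 ± 0.59, adjusted p = 0.513). At day 3 it stood at 6.78, 3.41 and 3.41 CPM against 1.79, 2.30 and 1.45 CPM, and every knockout sample lay below every control. The fold change of -1.29 ± 0.53 was not called (adjusted p = 0.163), and a fit of the day 3 samples alone called it (-1.31, adjusted p = 0.0310).

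Whether the knockout effect itself moved between days was tested as an interaction. None of the 8 genes was called, beside 4 genes in all (0.0219%) for day 2 against day 0, 7 genes (0.0383%) for day 3 against day 2 and 78 genes (0.427%) for day 3 against day 0. At an unadjusted p below 0.05 edgeR had 2, 4 and 5 of the 8 genes, beside 7.16%, 8.9% and 10.9% of all genes, and DESeq2 called 0, 2 and 1. From day 2 to day 3 the estimated change of the effect was 2.11 ± 0.41 for Sox21 (adjusted p = 0.138), 1.99 ± 0.62 for Pax6 (0.402), 1.81 ± 0.47 for Nes (0.287) and -1.32 ± 0.54 for Sox3 (0.555). From day 0 to day 3 the estimate for Nes was 2.07 ± 0.48 (adjusted p = 0.0735), and it was called without line 19 at day 2 (adjusted p = 0.0479), without line 1A4 (2.66, adjusted p = 0.0162) and without line 319 (2.36, adjusted p = 0.0362). Without line 319, Sox21 (2.4, adjusted p = 0.00871) and Pax6 (2.20, adjusted p = 0.0339) were called from day 2 to day 3, and Pax6 (1.76, adjusted p = 0.0437) from day 0 to day 3.

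The knockout lines were not alike at day 3. Against the control of its own background, and as differences in log2(CPM + 0.5), Pax6 was higher by 2.45 in line 14, 3.30 in line 19 and 0.62 in line 319. Sox21 was higher by 2.16, 2.01 and 1.10, and Zic1 by 3.04, 3.19 and 1.72. Nes differed by 0.89, 1.58 and -0.32 and Sox1 by 0.37, 0.26 and -0.53. Fabp7 was lower in each line, by -1.22, -0.93 and -1.004, and so was Sox3, by -0.32, -0.83 and -0.28.

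**Figure D4:**
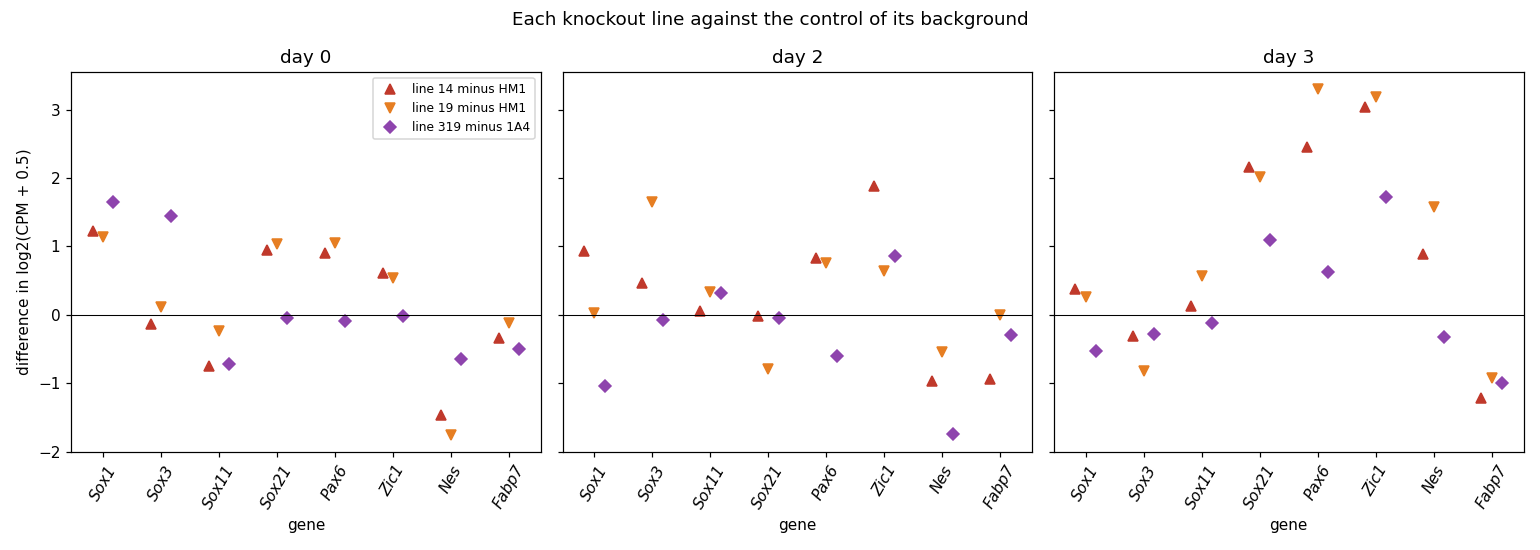
Difference in log2(CPM + 0.5) between each knockout line and the control of its background (y axis) for each gene (x axis), 1 panel a day. At day 3 line 319 (diamonds) lies below lines 14 and 19 (triangles) for Sox1, Sox11, Sox21, Pax6, Zic1 and Nes.

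The difference between backgrounds was tested in a fit with 12 groups of genotype, background and day, in which lines 1A4 and 319 are assumed to vary like the rest. None of the 8 genes was called at any day, beside 0.969%, 0.547% and 0.0219% of all genes at days 0, 2 and 3. At an unadjusted p below 0.05 there were 2, 2 and 3 of the 8, beside 13.3%, 15.1% and 9.12% of all genes, and DESeq2 called 0, 1 and 1. For Pax6 at day 3 the effect in line 319 minus that in lines 14 and 19 was -2.27 ± 0.54 (adjusted p = 0.196). It was -1.60 ± 0.48 for Nes (0.306), -0.96 ± 0.42 for Sox21 (0.540) and -1.47 ± 0.69 for Zic1 (0.582). For Sox1 at day 2 it was -2.22 ± 0.62 (0.154). A smaller response of Pax6 in line 319 is thus a difference in the values that the adjusted test did not call, while DESeq2 did (adjusted p = 0.0111). Sox1 at day 2 was called by DESeq2 and without line 19 at day 2 (-2.58, adjusted p = 0.00597). Leaving out line 14 or line 19 gave 3 and 2 calls among the 8 at day 0, 2 and 1 at day 2 and 4 and 3 at day 3, and in all genes at day 3 as many as 3414. Under both, Sox3 (1.64 and 1.93) and Sox21 (-1.10 and -1.001) were called at day 0, as they were without line 19 at day 2 alone (1.75 and -1.07).

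In the controls, 1A4 against HM1 gave no called gene among the 8 at any day, beside 0.159%, 0.0766% and 0.0602% of all genes. There 4, 2 and 2 of the 8 had an unadjusted p below 0.05, beside 9.98%, 4.8% and 4.27% of all genes, and DESeq2 called 3, 1 and 1. Sox21 was lower in line 1A4 by -1.31, -1.28 and -1.12 at the 3 days (adjusted p = 0.154, 0.652 and 0.693), and without the day 2 sample of line 19 it was called at each day (adjusted p = 0.00197, 0.0432 and 0.0159).

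Beside the 8 genes, 21 other genes of neural progenitors were read, 20 of which were tested. At day 0 none was called between genotypes, and at day 2 Sox2 was higher in the knockouts (0.83, adjusted p = 0.0198). Sox2, a SoxB1 factor shared by pluripotent and neural cells, stood at 137.3 ± 20.8 CPM in the controls and 240.6 ± 49.6 CPM in the knockouts (SD, n = 3). At day 3 Pou3f3 (1.59, adjusted p = 0.0195) and Irx3 (1.55, adjusted p = 0.0387) were higher and Sox9 was lower (-1.36, adjusted p = 0.0235). Irx3 and Pou3f3 are transcription factors of neural patterning, and Sox9 acts in glial and crest progenitors. Irx3 ranged from 13.02 to 76.5 CPM in the knockouts and from 12.3 to 14.9 CPM in the controls. The median over the list was 0.06 at day 3, with 10 genes above 0 and 10 below. Of all genes tested, 0.854%, 1.6% and 5.19% were called between genotypes at days 0, 2 and 3.

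Between day 2 and day 3 this list had 11 genes called higher and 6 called lower in each genotype, where 21.4% of all genes were called in the controls and 33.6% in the knockouts. In the controls Pax3 rose by 4.40, Pou3f2 by 4.37, Hes5 by 3.91 and Hes3 by 3.22, and Sox14 fell by 5.52, Pou3f1 by 2.29 and Zic5 by 1.93. Pax3 marks the dorsal neural plate, and Hes3 and Hes5 are repressors that keep progenitors cycling.

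Markers of other cells were read from the same fits. The counts of each list stand beside 0.854%, 1.6% and 5.19% of all genes called between genotypes at days 0, 2 and 3. Of 12 genes of early neurons 1 was lower in the knockouts at day 2 (Rbfox3, -1.24) and 1 at day 3 (Elavl4, -1.64), and none was called at day 0. Of 12 pluripotency genes 1 was called, Klf2, lower at day 3 (-1.47), and the list's median was -0.82 at that day. The summed level of these 12 at day 3 was 566 to 685 CPM in the controls, 354 CPM in line 14, 186 CPM in line 19 and 896 CPM in line 319. Lines 14 and 19, with the most Pax6, Sox21 and Zic1, were thus the lowest in this sum, and line 319 was the highest. No pluripotency gene was at 0 in any sample. The part of these values in the results was not tested.

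Of 9 mesendoderm genes, 4 were lower in the knockouts at day 0 (T, Mixl1, Foxa2 and Cer1) and 2 at day 2 (T and Cer1), and at day 3 Gata4 was higher (1.36). Their sum at day 0 was 56.7 to 111.7 CPM in the controls and 17.5 to 20.5 CPM in the knockouts, beside the lower Nes of the same samples. Of 4 tested neural crest genes, Foxd3 was higher at day 2 (1.63), where the sum of 5 was 18.2 to 28.1 CPM in the controls and 66.2 to 82.6 CPM in the knockouts. At day 0, before differentiation, that sum was already 18.6 to 25.4 CPM in the controls and 30.4 to 52.6 CPM in the knockouts. At day 3 that sum was 7.35 to 9.92 and 3.60 to 9.03 CPM. Whether it stood for neural crest cells was not tested.

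Of 9 tested feeder fibroblast genes Postn and Acta2 were lower in the knockouts at day 2 (-5.21 and -3.16) and at day 3 (-3.38 and -3.45). Fold changes above 0 numbered 1, 4 and 3 at days 0, 2 and 3, and those below 0 numbered 8, 5 and 6. The medians of the list were -0.35, -0.41 and -0.40. The sum of 10 such genes was 113 to 209 CPM in the controls and 82.0 to 141 CPM in the knockouts at day 0. It was 121 to 177 and 78.5 to 103 CPM at day 2, and 187 to 277 and 122 to 192 CPM at day 3. Only in line 19 were genes of the list at 0, 2 of them at day 2 and 1 at day 3. Nes is also expressed by mesenchymal cells, and whether fibroblasts contributed to its level was not tested.

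The genes whose pattern was most like that of Sox1 over the 18 samples were Sox1ot (Pearson r = 0.962 of log2(CPM + 0.5)), Abat (0.961), Amigo1 (0.959), Rcan2 (0.953) and Spsb4 (0.952), out of 13058 named genes whose mean level reached 1 CPM. For Pax6 they were Kitl (0.937), Nr2f1 (0.932), Vamp3 (0.913), Rnf150 (0.912) and Ogn (0.911). The samples share lines and days, so these values describe likeness only. Among the 8 genes Sox1 was most like Fabp7 (0.821) and least like Sox21 (0.113), and Pax6 was most like Zic1 (0.803) and least like Sox11 (0.179).

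Sox1ot is a long transcript that spans Sox1 on the same strand, on chromosome 8 from 12385771 to 12436729. It was scarce at day 0, from 0 counts in line 1A4 to 14 in line 319, and line 319 held 0 at day 2. At day 3 it stood at 2.45, 2.30 and 1.87 CPM in HM1 replicates 1 and 2 and line 1A4, and at 4.07, 4.26 and 0.91 CPM in lines 14, 19 and 319. As with Sox1, lines 14 and 19 were the highest and line 319 the lowest, but line 1A4 lay nearer to HM1 than it did for Sox1. Nr2f1, a nuclear receptor of neural patterning, stood at 4.49 ± 1.45 CPM in the day 3 controls and 29.5 ± 22.0 CPM in the knockouts (SD, n = 3). Kitl, the ligand of the receptor Kit, stood at 14.9 ± 0.9 and 34.8 ± 16.2 CPM. Over the knockout lines Nr2f1 ranged from 8.13 to 52.0 CPM and Kitl from 18.7 to 51.2 CPM.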

How the data were processed

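Raw counts per Ensembl transcript were deposited by the authors as 72 files, 4 technical files for each of 18 samples, of polyA-selected, stranded libraries. The submitters' processing notes name bcl2fastq 2.17.1.14, STAR 2.4.0k, SAMtools, HTSeq and the build mm10; which annotation release was counted, and whether strand was used, is not given in the sources used here. If strand was ignored, reads of a gene and of an overlapping antisense gene cannot be told apart.

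Technical files differed by counting error only (chi-square per degree of freedom 1.01 to 1.03) and were added up. GENCODE M21 (GRCm38) named 108214 of 110379 transcripts, the rest holding 1.44% to 2.48% of counts. A gene was represented by its transcript with the highest total. The counts of a gene's transcripts share reads and were not added. CPM were scaled with TMM, and the SD is over 3 samples.

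Tests used edgeR 4.0.16 (R 4.3.3, limma 3.58.1), filterByExpr, and 1 robust quasi-likelihood fit of the 6 groups plus genetic background over 18 samples (11 residual degrees of freedom, biological coefficient of variation 0.246). A second fit with 12 groups had 6. Benjamini-Hochberg adjustment ran over all 18273 tested genes, and an adjusted p below 0.05 was a call. The fit of the 6 groups was also run on simulated counts, for knockout against control at day 3. Those counts held no differences between lines or backgrounds and no correlation between days. They therefore cannot show how the fit behaves where these are present. Replicates are lines, or biological replicates of HM1, and each line was sampled once a day. P-values therefore measure the spread between these samples.

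The 3 days of a series come from the same line, which pairs them by construction. Their deviations from group means correlated above 0.1 in 17 of 18 pairs (from -0.096 to 0.56). Genes named are the 8 members, Nup133, members of 6 marker lists called between genotypes, the 5 genes most like Sox1 and Pax6, and genes set beside them for their position or share of counts. Members and lists were chosen with earlier results of these data known. Examples from the list of other neural progenitor genes between days were chosen after their values were seen. The alternatives, DESeq2 1.42.0 among them, are named in the closing section.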

Additional observations from a re-analysis of the deposited data

How the results depend on the processing

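The 18 alternatives were no filter on low counts, upper-quartile scaling, library totals without TMM, the longest transcript, all transcripts added up, no background term, HM1-derived lines only, samples of a day alone, each chromosome centred, no line 19 at day 2, DESeq2, the replicate block, and each of the 6 replicates left out. Over the 8 genes and all comparisons, 1961 fold changes kept their side of the threshold, 88 gained a call, 38 lost it and 0 called values turned sign. For knockout against control the number of the 8 genes called went from 0 at day 0 to 1 with DESeq2 or the day alone and 2 in HM1-derived lines. At day 2 it went from 1 to 0 with the day alone and 2 with DESeq2. At day 3 it was 3, and 2 without the background term, and 4 both in HM1-derived lines (Nes added) and with the day alone (Fabp7 added). With a replicate left out it ranged from 0 to 1 at days 0 and 2 and from 0 to 3 at day 3, the 0 being without either HM1 replicate. For the controls from day 2 to day 3 the range was 3 to 6. The change of the effect from day 2 to day 3 had 0 genes called, 1 without the filter and 2 with DESeq2, and from day 0 to day 3 it had 0, and 1 in HM1-derived lines, without line 19 at day 2 or with DESeq2; leaving out a replicate gave 0 to 2 for both. The knockout effect by background had 0 called. At day 0 it had 1 without the filter and 2 without line 19 at day 2, with 0 to 3 over replicates left out. At day 2 it had 2 without the filter, 1 without line 19 at day 2 and 1 with DESeq2, and 0 to 2 over replicates. At day 3 it had 2 without the filter and 1 with DESeq2, and 0 to 4 over replicates. Line 1A4 against HM1 had 0 called at each day. Without the filter it had 3, 1 and 1 at days 0, 2 and 3, with DESeq2 3, 1 and 1, without line 19 at day 2 it had 2 at each day, and over replicates 0 to 2. Counts over all genes moved more. For knockout against control they were 156, 292 and 948 at days 0, 2 and 3, and ranged over the alternatives from 18 to 560, 0 to 1406 and 17 to 2994. For the change of the effect they were 4, 7 and 78 (0 to 76, 1 to 133 and 6 to 448). For the effect by background, from a fit with 6 residual degrees of freedom, they were 177, 100 and 4 (0 to 4084, 0 to 8919 and 0 to 3414), and for line 1A4 against HM1 29, 14 and 11 (1 to 3427, 2 to 981 and 2 to 1152). Between days they ranged in the controls from 2833 to 8900 (day 2 against day 0), 1215 to 6361 (day 3 against day 2) and 5899 to 11512 (day 3 against day 0), and in the knockouts from 3813 to 7712, 4341 to 7584 and 6849 to 11436. The replicate block added the call of Pax6 from day 0 to day 2 in the controls (-1.11, adjusted p = 0.0065) and changed no other call. Library totals without TMM moved 3 group means by more than their SD, to 50.5 CPM for Sox3 and 142 CPM for Sox11 in the day 3 controls and 25.3 CPM for Sox11 in the day 0 controls. The cause of these differences was not tested. Zic1 at day 0 and Fabp7 at day 0 rest on at most 20 counts a sample, which limits their precision. The same limit holds for Zic1 at day 2, with 8 counts in HM1 replicate 2 and 9 in line 19. Single day 2 samples were also low for Sox1 (12 counts in line 319), Sox21 (14 and 20 in lines 19 and 319) and Fabp7 (7 in line 319).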
